A study of Mus musculus with 23 samples.

Results

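Ifitm1, Ifitm2 and Ifitm3, the interferon-induced transmembrane protein genes best known from mouse germ cells, were followed from embryonic stem (ES) cells to mature oocytes. They were chosen by symbol, as 3 of the 22784 gene symbols in a table of poly(A) RNA levels, and all 3 were found. The 23 samples form 8 groups, 5 of them grown in culture (14 samples) and 3 taken from animals (9 samples), and the table gives each gene 1 value per group. The culture groups were female ES cells kept in 2i+LIF medium, cells resembling primordial germ cells (PGCLCs), induced from female epiblast-like cells and purified by flow cytometry on day 6, PGCLCs reaggregated for 3 days with gonadal somatic cells of female E12.5 embryos, oocytes of secondary follicles from reaggregates at day 21, and metaphase II (MII) oocytes. These MII oocytes came after 11 days of follicle culture with FSH, the first part of it with BMP15 and GDF9, and 16 hours of maturation with FSH, EGF and hCG. Before that, the estrogen receptor antagonist ICI182780 had been given for part of the reaggregate culture. The animal groups comprised E12.5 primordial germ cells (PGCs) and oocytes from secondary follicles of females at postnatal day 8, both sorted by the BVSC reporter transgenes (Blimp1-mVenus and stella-ECFP, which report Prdm1 and Dppa3), and MII oocytes of females aged 8 weeks. All culture groups had the strain background C57BL/6 X 129 and all animal groups B6D2F1, so strain and route cannot be told apart. Day 6 PGCLCs had 2 samples and each of the other groups 3. The number of lines or clones behind the culture samples, and the sex of the E12.5 PGCs, are not given in the sources used here.

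IFITM proteins are small membrane proteins that hinder enveloped viruses from fusing with the membranes of a cell. Interferons induce their genes in many cell types, and stem and germ cells carry them without infection. In mice Ifitm3, also called fragilis, marks the cells of the early embryo from which PGCs arise, and Ifitm1 and Ifitm3 are both found in PGCs. IFITM1 is known mainly from the cell surface, and IFITM2 and IFITM3 mainly from endosomes. Mice that lack the whole gene cluster still form germ cells.

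The 3 genes lie within 55934 bases of chromosome 7, from 140954837 to 141010770 in GENCODE release M21 for GRCm38, the assembly also called mm10. Ifitm2 (ENSMUSG00000060591.9) runs from 140954837 to 140955987 on the minus strand. Ifitm1 (ENSMUSG00000025491.14) runs from 140967221 to 140969825 on the plus strand, and Ifitm3 (ENSMUSG00000025492.6) from 141009586 to 141010770 on the minus strand. Each is a short protein-coding gene, with 2 exons in Ifitm2 and Ifitm3 and up to 3 in transcripts of Ifitm1. Ifitm6 lies 4929 bases beyond Ifitm3 and Ifitm5 lies 4546 bases before Ifitm2. A predicted gene, Gm45717, spans Ifitm5 and Ifitm2 on the same strand, so reads of Ifitm2 could be shared with it.

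The promoters are shown because Ifitm1 and Ifitm2 were both far lower in oocytes than in the earlier groups. Ifitm3 was lower to a lesser degree, and Ifitm6, their neighbour, ran the other way. From ES cells to day 6 PGCLCs Ifitm1 and Ifitm2 did not move together, as given below. Each sequence has 250 bases before and 50 bases after a RefSeq start site in GRCm38.p6, read 5′ to 3′ on the strand of the gene. Capitals mark matches to GAAA followed, after any 2 bases, by GAAA again, on either strand, the core of the interferon-stimulated response element (ISRE), to which interferon-activated transcription factors bind.
Ifitm1, chr7:140967826-140968125, plus strand: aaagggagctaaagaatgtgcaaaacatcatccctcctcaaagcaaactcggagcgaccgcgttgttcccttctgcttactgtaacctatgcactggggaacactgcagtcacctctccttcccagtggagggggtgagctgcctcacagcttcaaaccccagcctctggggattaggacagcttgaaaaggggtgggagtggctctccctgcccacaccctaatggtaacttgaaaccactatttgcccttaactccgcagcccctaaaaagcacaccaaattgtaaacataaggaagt
Ifitm2, chr7:140955912-140956211, minus strand: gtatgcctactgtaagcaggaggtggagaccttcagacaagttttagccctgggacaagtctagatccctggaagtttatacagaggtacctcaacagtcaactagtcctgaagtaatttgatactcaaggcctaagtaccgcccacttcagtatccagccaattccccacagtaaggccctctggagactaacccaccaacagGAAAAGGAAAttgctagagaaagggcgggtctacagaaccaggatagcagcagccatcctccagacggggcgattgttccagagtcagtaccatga
Ifitm3, chr7:141010695-141010994, minus strand: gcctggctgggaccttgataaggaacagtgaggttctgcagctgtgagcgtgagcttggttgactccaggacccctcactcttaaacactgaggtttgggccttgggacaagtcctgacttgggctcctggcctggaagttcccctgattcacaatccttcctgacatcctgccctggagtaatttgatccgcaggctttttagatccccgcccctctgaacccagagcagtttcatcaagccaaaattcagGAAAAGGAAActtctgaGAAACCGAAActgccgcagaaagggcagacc
Ifitm6, chr7:141016843-141017142, minus strand: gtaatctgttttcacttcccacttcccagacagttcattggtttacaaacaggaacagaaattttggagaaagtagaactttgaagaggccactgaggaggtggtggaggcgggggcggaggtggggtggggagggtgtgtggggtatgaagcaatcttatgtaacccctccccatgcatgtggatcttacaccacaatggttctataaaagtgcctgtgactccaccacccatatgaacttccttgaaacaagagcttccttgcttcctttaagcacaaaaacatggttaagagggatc
The Ifitm3 window held 2 matches, at bases 3 to 12 and 20 to 29 after the start site, and the Ifitm2 window 1, from 46 to 37 bases before it. The windows of Ifitm1 and Ifitm6 held 0. For Ifitm1 the window belongs to 1 of several annotated starts, and the others were not searched. The annotated Ifitm6 gene reaches to 141017924, upstream of its window, and that end was not searched either. Of 32851 mouse promoter windows of the same length, 3.44% held the motif on at least 1 strand. The gamma-activated site TTCNNNGAA was found in 8.30% of all windows, and in those of Ifitm3 and Ifitm6. The Ifitm3 match, at bases 14 to 22, overlaps the ISRE match that starts at base 20. The GC box GGGCGG, in 35.7% of all windows, was in those of Ifitm2, Ifitm3 and Ifitm6. The letters TATAAA were also in the Ifitm6 window, from 46 to 41 bases before the start site, on the gene's strand, and in 13.6% of all windows. The Ifitm2 window held them on the other strand, and CCAAT, in 37.4% of all windows, was in those of Ifitm2 and Ifitm6. The octamer ATGCAAAT, in 1.74% of all windows, and TAATTG, an element of the oocyte factor NOBOX, in 8.00%, were in 0 of these 4. The Ifitm1 window held 0 of the 7 motifs searched. The longest run of bases shared by any pair of these windows was 13, between Ifitm2 and Ifitm3. A match describes letters and does not show that a factor was bound.

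Values are fragments per kilobase of transcript, scaled to sequencing depth (FPKM), so levels of different genes can be set side by side. There is 1 value per group and so no replicate check on any difference below, no spread to set it against and no test. Read depth is not known. Ratios are differences of log2(FPKM + 1), and the words higher and lower are used of a difference of 1 or more in size, which is 2-fold on that scale. All 3 members were among the 14242 genes with at least 1 FPKM in at least 1 group, over which the background shares are given. Consecutive comparisons share a group and are not independent of each other. In bulk RNA, fewer cells of a type and less RNA per cell cannot be told apart.

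The ES cell and oocyte markers fitted the labels of the groups, and the PGC markers did so only in part. The summed level of 5 ES cell markers was 668 FPKM in ES cells and at most 260 FPKM elsewhere, and that of 5 oocyte genes (Gdf9, Zp3, Figla, Nobox and Bmp15) was 8656 to 11977 FPKM in the 4 oocyte groups and at most 7.97 FPKM in the other 4. The PGC genes Dnd1 and Nanos3 had 162 and 35.1 FPKM in day 6 PGCLCs, against 5.03 and 1.85 FPKM in ES cells. They had 102 and 23.4 FPKM in reaggregated PGCLCs, and 144 and 20.3 FPKM in E12.5 PGCs. The sum of all 5 PGC markers did not set these groups apart, with 402 to 562 FPKM in PGCLCs and PGCs and 443 to 929 FPKM in oocytes. Dppa3 alone had 434 to 839 FPKM in oocytes. The columns of the MII oocytes summed to 616260 FPKM in culture and 975407 FPKM in the animal, and those of the other 6 groups to between 268720 and 349772 FPKM.

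Before the oocyte stages the 3 members were among the most abundant messages of the cells. Ifitm1, of the cell surface, had 122 FPKM in ES cells, 678 FPKM in day 6 PGCLCs, 358 FPKM in reaggregated PGCLCs, 0.120 FPKM in secondary follicle oocytes of culture and 0.0520 FPKM in in vitro MII oocytes. On the animal route it had 334 FPKM in E12.5 PGCs, 0.166 FPKM in secondary follicle oocytes and 0.212 FPKM in MII oocytes. The 4 groups before oocyte growth were thus all above 100 FPKM and the 4 oocyte groups all below 1 FPKM.

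Ifitm2 had 343, 410.5 and 295 FPKM in ES cells, day 6 PGCLCs and reaggregated PGCLCs, and 0.375 and 0.290 FPKM in the secondary follicle and MII oocytes grown in vitro. On the animal route it had 214 FPKM in E12.5 PGCs, 0.405 FPKM in secondary follicle oocytes and 0.355 FPKM in MII oocytes. Its spread among the 4 early groups was narrower than that of Ifitm1, and its oocyte values were likewise below 1 FPKM.

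Ifitm3 was the member that oocytes kept. It had 290 FPKM in ES cells, 779 FPKM in day 6 PGCLCs, 294 FPKM in reaggregated PGCLCs, 18.6 FPKM in secondary follicle oocytes of culture and 40.2 FPKM in in vitro MII oocytes. On the animal route it had 127 FPKM in E12.5 PGCs, 12.3 FPKM in secondary follicle oocytes and 75.9 FPKM in MII oocytes. In each route the secondary follicle oocyte was the low point.

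In day 6 PGCLCs Ifitm3 stood at rank 21 and Ifitm1 at rank 30 of all 22784 symbols by FPKM, and Ifitm2 at rank 53. In ES cells the order was Ifitm2, Ifitm3 and Ifitm1, at ranks 99, 117 and 449. In E12.5 PGCs it was Ifitm1, Ifitm2 and Ifitm3, at ranks 64, 137 and 298. In reaggregated PGCLCs Ifitm2 and Ifitm3 were level, at 295 and 294 FPKM and ranks 70 and 71, with Ifitm1 at rank 50. Whether neighbours in these orders differ beyond the spread between samples cannot be said from 1 value per group.

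**Figure D1:**
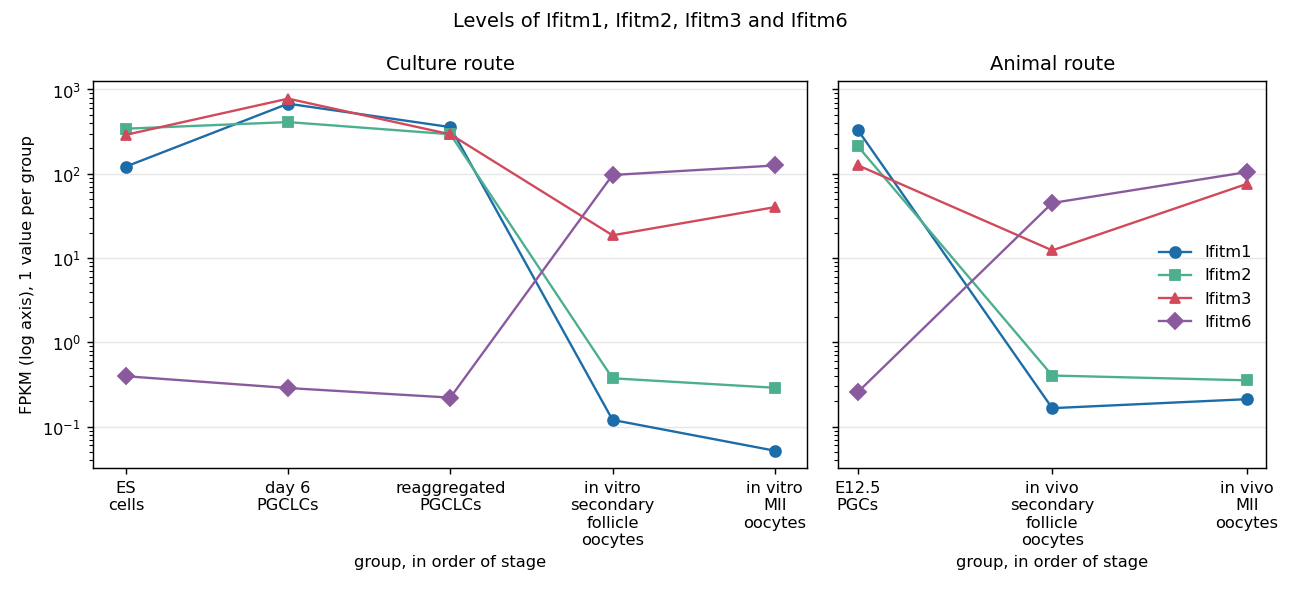
FPKM of Ifitm1, Ifitm2, Ifitm3 and Ifitm6 on a log axis, with the 5 culture groups in the left panel and the 3 animal groups in the right, 1 value per group. Ifitm1 and Ifitm2 are above 100 FPKM before the oocyte stages and below 1 FPKM in oocytes, Ifitm3 stays above 10 FPKM throughout, and Ifitm6 runs the other way.

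The way from ES cells to germ cells in culture was read as day 6 PGCLCs against ES cells. The epiblast-like cells between them are not among the groups. The differences therefore cannot be placed before or after that stage. Ifitm1 had 678 FPKM in day 6 PGCLCs, against 122 FPKM in ES cells, 5.57-fold on the FPKM scale and a log2 ratio of 2.47. Ifitm3 had 779 against 290 FPKM, 2.69-fold and a log2 ratio of 1.42. Ifitm2 had 410.5 against 343 FPKM and was within 2-fold (0.26). Of all genes tested, 9.63% were at least 2-fold higher in this comparison and 12.0% lower. Ifitm1 stood at rank 208 and Ifitm3 at rank 745 of 14242 by ratio.

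Reaggregated PGCLCs were compared with day 6 PGCLCs, before and after 3 days with gonadal somatic cells. Ifitm3 had 294 FPKM in reaggregated PGCLCs, against 779 FPKM in day 6 PGCLCs, a log2 ratio of -1.40. It was the 1 member past 2-fold, in a comparison where 5.04% of genes were lower and 5.15% higher, and stood at rank 262 from the lowest ratio. Ifitm1 had 358 against 678 FPKM (-0.92) and Ifitm2 295 against 410.5 FPKM (-0.48). All 3 ratios were negative, while the median of all genes tested was -0.015. Granulosa cell markers differed too, with a sum of 12.1 FPKM and 4 of 8 at 1 FPKM or more in reaggregated PGCLCs, against 1.17 FPKM and 0 of 8 in day 6 PGCLCs. Fshr was listed at 0 in both groups, and Amhr2, Inhba and Hsd3b1 in day 6 PGCLCs. Gonadal stroma markers summed to 26.1 FPKM, with 5 of 8 at 1 FPKM or more, against 44.7 FPKM, with 4 of 8. The part of such cells in these ratios was not tested.

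The step to the growing oocyte set the members apart most. In culture Ifitm1 had 0.120 FPKM in secondary follicle oocytes, against 358 FPKM in reaggregated PGCLCs, a log2 ratio of -8.32. Ifitm2 had 0.375 against 295 FPKM (-7.75). They were the 4th and 6th lowest ratios of 14242. Ifitm3 had 18.6 against 294 FPKM, 15.8-fold lower, with a log2 ratio of -3.91 at rank 171 from the lowest. All 3 were past 2-fold, in a comparison where 26.4% of genes were lower.

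The animal route gave nearly the same picture from its own groups. Ifitm1 had 0.166 FPKM in secondary follicle oocytes, against 334 FPKM in E12.5 PGCs (-8.17), and Ifitm2 0.405 against 214 FPKM (-7.26). They were again the 4th and 6th lowest ratios. Ifitm3 had 12.3 against 127 FPKM, 10.3-fold lower, with a log2 ratio of -3.26 at rank 325 from the lowest. Here 25.9% of genes were at least 2-fold lower, and all 3 members were among them. These 2 comparisons share no group.

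From the secondary follicle to MII, Ifitm3 was the member that was higher. In the animal it had 75.9 FPKM in MII oocytes, against 12.3 FPKM in secondary follicle oocytes, 6.15-fold and a log2 ratio of 2.53, where 28.0% of genes were higher and 33.1% lower. The ratio was 1.09 once the columns were scaled to equal sums. In culture it had 40.2 against 18.6 FPKM, a log2 ratio of 1.07, where 23.9% of genes were higher and 28.6% lower. That ratio was 0.28 with equal sums, 0.82 after quantile normalization and 0.94 with a pseudocount of 5, so the call in culture rests on the scale used. Ifitm1 and Ifitm2 stayed below 1 FPKM at both stages, and their ratios lay between -0.09 and 0.06. Granulosa cell markers summed to 48.6 FPKM in in vitro MII oocytes, against 5.66 FPKM in in vitro secondary follicle oocytes. In the animal they summed to 11.5 against 7.51 FPKM. Amh and Fshr went the other way in both routes, and Foxl2, Inha and Amhr2 did so in the animal. The part of such cells in the Ifitm3 ratios was not tested.

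**Figure D2:**
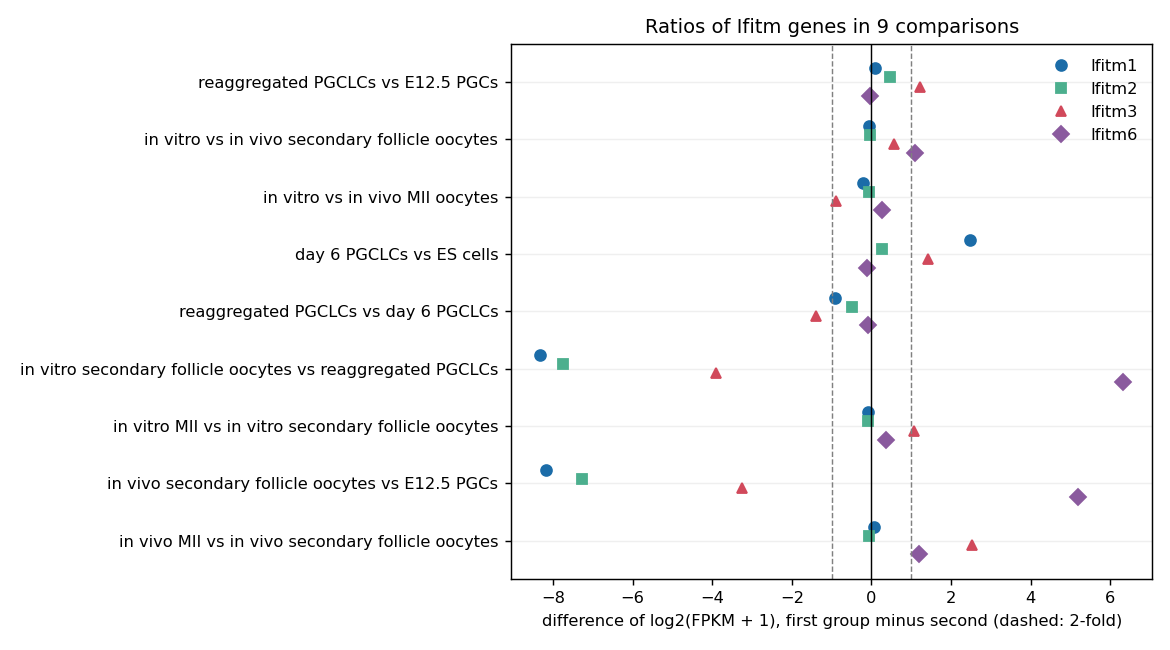
Difference of log2(FPKM + 1) for 4 Ifitm genes in 9 comparisons, first-named group minus second, with dashed lines at 2-fold. The points lie farthest from 0 in the 2 comparisons of secondary follicle oocytes with the germ cells before them, where Ifitm1 and Ifitm2 lie below -7 and Ifitm6 above 5.

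Culture was then set against the animal at each stage. In reaggregated PGCLCs Ifitm3 had 294 FPKM, against 127 FPKM in E12.5 PGCs, 2.32-fold and a log2 ratio of 1.21, at rank 104 from the highest. It was the 1 member past 2-fold, where 1.39% of genes were higher and 0.786% lower. Ifitm2 had 295 against 214 FPKM (0.46) and Ifitm1 358 against 334 FPKM (0.10). The 3 neighbouring genes therefore did not share 1 ratio between culture and animal.

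Markers of other cells also differed between these 2 groups. The summed level of 8 granulosa cell markers was 12.1 FPKM in reaggregated PGCLCs, with 4 of 8 at 1 FPKM or more and Fshr listed at 0, against 1.75 FPKM in E12.5 PGCs, with 0 of 8 at 1 FPKM and Fshr and Hsd3b1 listed at 0. Gonadal stroma markers summed to 26.1 against 28.7 FPKM, with 5 of 8 against 1 of 8 at 1 FPKM or more, none listed at 0 and Vim the largest part of both sums. Endothelial markers summed to 81.2 against 64.6 FPKM, of which Pecam1, also a germ cell gene, made up 80.1 and 63.0 FPKM, with Emcn listed at 0 in reaggregated PGCLCs. Blood and macrophage markers, of which 5 of 6 were in the table, summed to 0.237 against 6.51 FPKM, with the globin genes Hbb-y and Hba-x listed at 0 in reaggregated PGCLCs. The part of such cells in the Ifitm3 difference was not tested.

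In secondary follicle oocytes Ifitm3 had 18.6 FPKM in culture, against 12.3 FPKM in the animal, a log2 ratio of 0.56. Ifitm1 had 0.120 against 0.166 FPKM and Ifitm2 0.375 against 0.405 FPKM. Of the 3 members 0 were past 2-fold, where 1.74% of genes were higher and 0.660% lower. In MII oocytes Ifitm3 had 40.2 FPKM in culture, against 75.9 FPKM in the animal, a log2 ratio of -0.90. It stayed within 2-fold at -0.25 with equal sums, and passed it at -1.29 after median centring. Ifitm1 had 0.0520 against 0.212 FPKM and Ifitm2 0.290 against 0.355 FPKM, all below 1 FPKM. Again 0 of 3 members were past 2-fold, where 12.4% of genes were higher and 9.45% lower. The granulosa markers summed to 48.6 FPKM in in vitro MII oocytes, against 11.5 FPKM in in vivo MII oocytes, with Fshr listed at 0 in both.

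The other 4 genes of the table named Ifitm were read as a list. Ifitm6 had 0.397, 0.288 and 0.221 FPKM in ES cells, day 6 PGCLCs and reaggregated PGCLCs, and 96.8 and 125 FPKM in the secondary follicle and MII oocytes grown in vitro. On the animal route it had 0.256 FPKM in E12.5 PGCs, 45.0 FPKM in secondary follicle oocytes and 105 FPKM in MII oocytes. It was thus below 1 FPKM in each group where Ifitm1 and Ifitm2 were above 100 FPKM, and above 40 FPKM in each group where they were below 1 FPKM. The step to the secondary follicle gave it a log2 ratio of 6.32 in culture, where 25.2% of genes were higher, and 5.20 in the animal, where 24.3% were. These were ranks 122 and 219 from the highest.

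Ifitm6 was also higher in culture than in the animal at the secondary follicle stage, with 96.8 against 45.0 FPKM and a log2 ratio of 1.09, at rank 192 from the highest. In MII oocytes it had 125 FPKM in culture and 105 FPKM in the animal, within 2-fold. Its higher level in in vivo MII oocytes than in in vivo secondary follicle oocytes (log2 ratio 1.20) turned to -0.26 with equal sums and -0.016 after quantile normalization. Ifitm5, known from bone-forming cells, had 1.16 to 2.03 FPKM in the 4 groups before the oocyte stages and was listed at 0 in all 4 oocyte groups. Ifitm7 was at most 1.03 FPKM and Ifitm10 at most 0.383 FPKM in any group.

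Summed over all 7 genes, the family stood at 757 FPKM in ES cells, 1870 FPKM in day 6 PGCLCs and 949 FPKM in reaggregated PGCLCs, and at 677 FPKM in E12.5 PGCs. In secondary follicle oocytes the sum was 116 FPKM in culture, against 58.3 FPKM in the animal, and in MII oocytes 166 FPKM in culture, against 181 FPKM in the animal. Ifitm6 made up 83.2% and 75.5% of the sum in in vitro secondary follicle and MII oocytes, and 77.2% and 57.8% in their in vivo counterparts. Ifitm3 made up 16.0% and 24.2% in in vitro secondary follicle and MII oocytes, and 21.2% and 41.9% in their in vivo counterparts. In the 4 earlier groups Ifitm6 was at most 0.0525% of the sum. Oocytes of both routes thus shared Ifitm3 with the germ cells before them, and held Ifitm6 rather than Ifitm1 and Ifitm2.

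**Figure D3:**
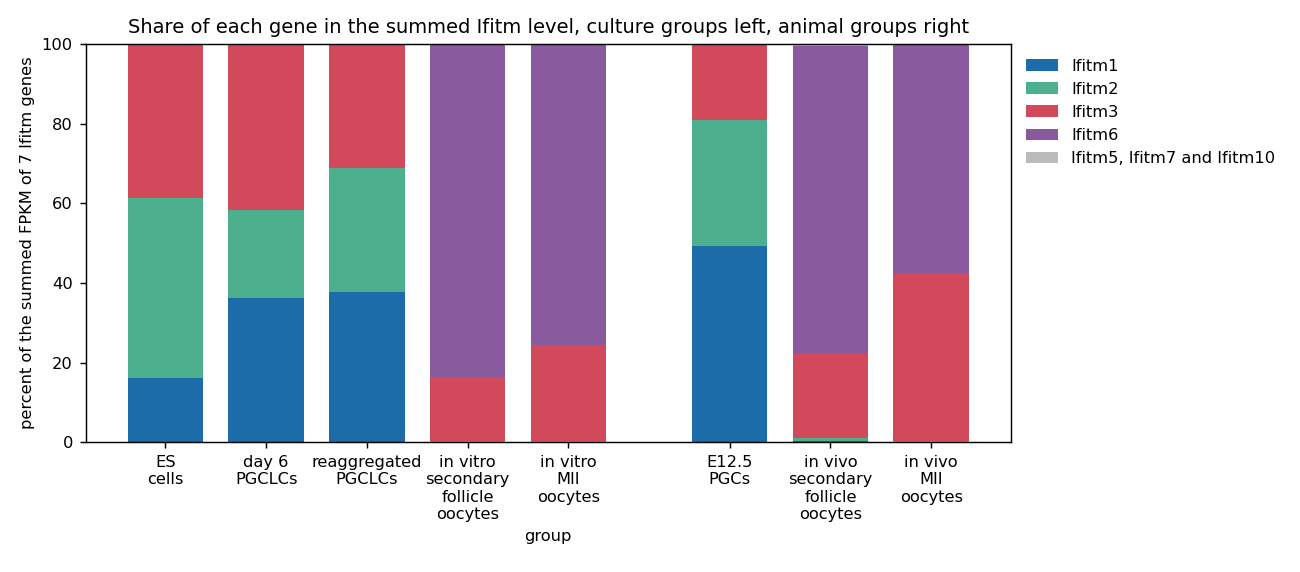
Percent of the summed FPKM of the 7 Ifitm genes that each gene makes up, in the 5 culture groups on the left and the 3 animal groups on the right, as stacked bars from 0 to 100. Ifitm1, Ifitm2 and Ifitm3 fill the bars of the 4 groups before the oocyte stages, and Ifitm6 and Ifitm3 those of the 4 oocyte groups.

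Reads that match more than 1 of these genes could be split between them. In GENCODE transcripts Ifitm2 and Ifitm3 were 79.0% identical over 539 aligned bases, Ifitm1 and Ifitm3 76.8% over 483 and Ifitm1 and Ifitm2 74.0% over 547. Stretches of 50 bases that are the same in both genes made up 3.18% of those in Ifitm3 for Ifitm2 and 2.38% for Ifitm1. Ifitm6 shared 0 such stretches with the 3 members, and its longest run in common with any of them was 25 bases. The sources used here do not say how the authors treated reads with several matches, so the members' levels below 1 FPKM beside Ifitm3 are the most uncertain.

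Profiles were compared by the root mean square difference of log2(FPKM + 1) across the 8 groups, after each gene was centred on its own mean, over genes with at least 10 FPKM in at least 1 group. By this measure Ifitm2 was the 3rd nearest of 9469 genes to Ifitm1, with a difference of 0.65, while Ifitm3 was the 432nd nearest, with 2.58. Ranked by nearness to Ifitm3, Ifitm2 stood at 5814 and Ifitm1 at 6546 of 9469. Among the 5 genes nearest to Ifitm1 outside the family were Utf1 (0.28), a chromatin factor of pluripotent cells, Rnu73b (0.56), Rhox5 (0.81), an X-linked homeobox gene, and Alpl (1.12), the alkaline phosphatase long used to stain PGCs. Utf1 had 183, 494 and 391 FPKM in ES cells, day 6 PGCLCs and reaggregated PGCLCs, 370.2 FPKM in E12.5 PGCs, and at most 0.167 FPKM in any oocyte group.

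Among the 5 genes nearest to Ifitm2 were Rnu73b (0.45), Utf1 (0.50), Rhox5 (0.51) and Tdh (0.81), which encodes threonine dehydrogenase, an enzyme that mouse ES cells depend on. Rnu73b, Utf1 and Rhox5 were among the 5 nearest to both. Rnu73b is a short RNA gene, and its values are uncertain. The genes nearest to Ifitm3 were others, namely Lima1 (0.47), an actin-binding gene, Tpp1 (0.49), a lysosomal peptidase gene, Zfp64 (0.51), a zinc finger gene, Gnb2l1 (0.60), a ribosome-associated scaffold gene now called Rack1, and Neat1 (0.61), a noncoding RNA of nuclear paraspeckles. The points behind each value are the same 8 groups, and the measure says nothing of shared control.

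Genes next to the cluster were read along the chromosome, as the 5 nearest protein-coding genes of the table on each side. Of these 10, 8 had 1 FPKM or more in some group, Cox8b was listed at 0 in all 8 groups and Nlrp6 was at most 0.0749 FPKM. In in vitro secondary follicle oocytes 5 of 8 were lower than in reaggregated PGCLCs and 1, Ifitm6, was higher, and in the animal the counts were the same. Over all genes 26.4% were lower and 25.2% higher in culture, and 25.9% and 24.3% in the animal. The 5 were Psmd13, a proteasome gene, Athl1, called Pgghg in the annotation, Ifitm5, Sigirr, a receptor that dampens interleukin signalling, and Ano9, in both routes. Athl1, Ifitm5, Sigirr and Ano9 reached 1 FPKM in no oocyte group, and Ifitm6 reached it in no earlier group. They were among the 8 only through the groups where they are high, so these counts cannot be weighed against the shares over all genes. Athl1, 7173 bases before Ifitm2, had 0.223 FPKM in in vitro secondary follicle oocytes, against 21.6 FPKM in reaggregated PGCLCs (log2 ratio -4.21), and 0.0585 FPKM in in vivo secondary follicle oocytes, against 20.5 FPKM in E12.5 PGCs (-4.35). It was also higher in day 6 PGCLCs than in ES cells, with 28.4 against 6.29 FPKM (2.01), while B4galnt4 (5.22 against 21.1 FPKM) and Ano9 (5.84 against 14.4 FPKM) were lower. Between reaggregated PGCLCs and E12.5 PGCs 0 of these 8 were past 2-fold, where 1.39% of all genes were higher and 0.786% lower, so the count does not set these neighbours apart.

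**Figure D4:**
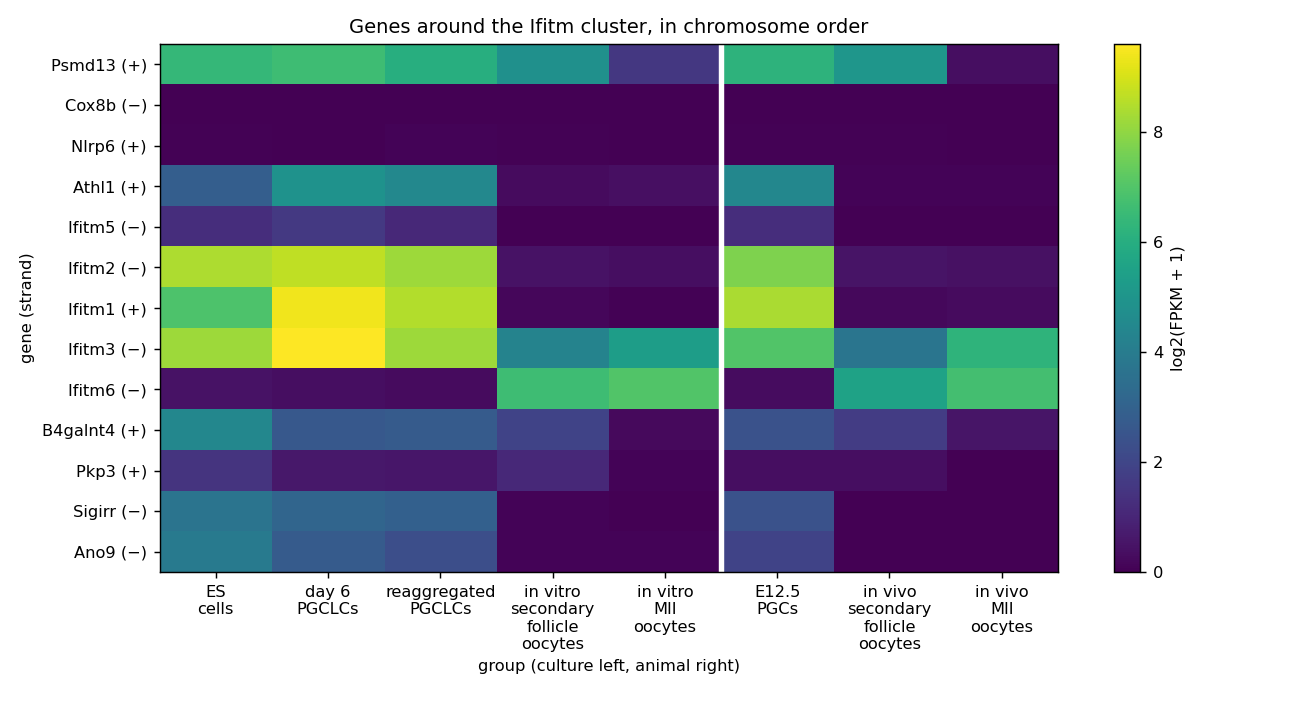
Levels as log2(FPKM + 1) of the 3 members and the 5 nearest protein-coding genes of the table on each side, in chromosome order from top to bottom, with strand, for the culture groups on the left and the animal groups on the right. Ifitm1 and Ifitm2 go dark in the 4 oocyte groups, Ifitm6 goes bright, and Ifitm3 between them keeps an intermediate level.

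The interferon system was read next, since interferons induce these genes elsewhere. Of 7 interferon ligand genes 0 reached 1 FPKM in any group, and Ifnb1, Ifne, Ifnk, Ifnz and Ifnl3 were listed at 0 in all 8. Among receptor and signalling genes Ifnar1, a type I receptor chain, had 6.27, 6.52 and 8.39 FPKM in ES cells, day 6 PGCLCs and reaggregated PGCLCs and 8.93 FPKM in E12.5 PGCs. In the 4 oocyte groups Ifnar1 had 1.25 to 4.88 FPKM. Irf9, a transcription factor of the type I interferon response, had 4.78 to 7.66 FPKM in the 4 groups before the oocyte stages. It had 0.0767 to 0.469 FPKM in the 4 oocyte groups. Ifnar1 and Irf9, picked after their values were seen, do not stand for all 18 receptor and signalling genes. Of the 18, 6 were higher in in vitro secondary follicle oocytes than in reaggregated PGCLCs, against 4 lower (median log2 ratio 0.29). In in vivo secondary follicle oocytes over E12.5 PGCs, 5 were higher, against 4 lower (median 0.34). With equal sums these medians were -0.05 and 0.05.

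The 33 interferon-stimulated genes other than the Ifitm genes were low as a list, with a median of 0.245, 0.789 and 0.176 FPKM in ES cells, day 6 PGCLCs and reaggregated PGCLCs and 0.153 FPKM in E12.5 PGCs. In these 4 groups each of the 3 members was above the highest of the 33, which was Bst2, an antiviral membrane protein gene, at 64.1, 262, 107 and 78.1 FPKM in the same order. The classical targets Ifit1, Ifit3, Mx1, Usp18 and Ifi44 were at most 0.439 FPKM in any group, and were picked after their values were seen. Other known targets were less low in day 6 PGCLCs. Isg15, Zbp1, Ifih1 and Rtp4 had 1.43, 3.00, 1.34 and 1.16 FPKM there, and at most 0.620 FPKM in any other group. 18 of the 33 passed the filter on low values.

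In day 6 PGCLCs 7 of these 18 were higher than in ES cells and 4 lower, where 9.63% of all genes were higher and 12.0% lower, with a list median of 0.03 beside 0.00021 over all genes tested. Higher were Ifi27 (16.0 against 0.359 FPKM), Bst2 (262 against 64.1 FPKM), Zbp1 (3.00 against 0.620 FPKM) and Isg15 (1.43 against 0 FPKM). Ifih1, Rtp4 and Parp14 were the others. Zbp1, Isg15, Ifih1, Rtp4 and Parp14 reached 1 FPKM in no group but day 6 PGCLCs. They passed the filter only through the group where they are high, so the count of higher genes cannot be weighed against the share over all genes. Lower were Xaf1, a gene linked to cell death (0.789 against 20.6 FPKM), and B2m, the light chain of histocompatibility molecules (2.11 against 13.0 FPKM). In reaggregated PGCLCs 2 of 18 were higher than in day 6 PGCLCs and 5 lower, beside 5.15% and 5.04% of all genes, with a median of -0.63 beside -0.015. Zbp1, Ifih1 and Rtp4 were among the 5 lower, so this count and median carry the same limit. Between reaggregated PGCLCs and E12.5 PGCs 0 of 18 were past 2-fold, where 1.39% of all genes were higher and 0.786% lower. In in vitro secondary follicle oocytes 1 of 18 was higher than in reaggregated PGCLCs and 6 lower, beside 25.2% and 26.4% of all genes, with a median of -0.21 beside -0.09 over all genes. In in vivo secondary follicle oocytes 2 of 18 were higher than in E12.5 PGCs and 7 lower, beside 24.3% and 25.9% of all genes, with a median of -0.43 beside -0.09. In MII oocytes 4 of 18 were higher and 1 lower than in secondary follicle oocytes in culture, beside 23.9% and 28.6% of all genes, and 3 higher and 0 lower in the animal, beside 28.0% and 33.1%. Trim25, a ubiquitin ligase of antiviral sensing, had 0.992 FPKM in in vitro secondary follicle oocytes, against 18.7 FPKM in reaggregated PGCLCs, and Cmpk2, a mitochondrial nucleotide kinase gene, had 19.0 against 0.205 FPKM.

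**Figure D5:**
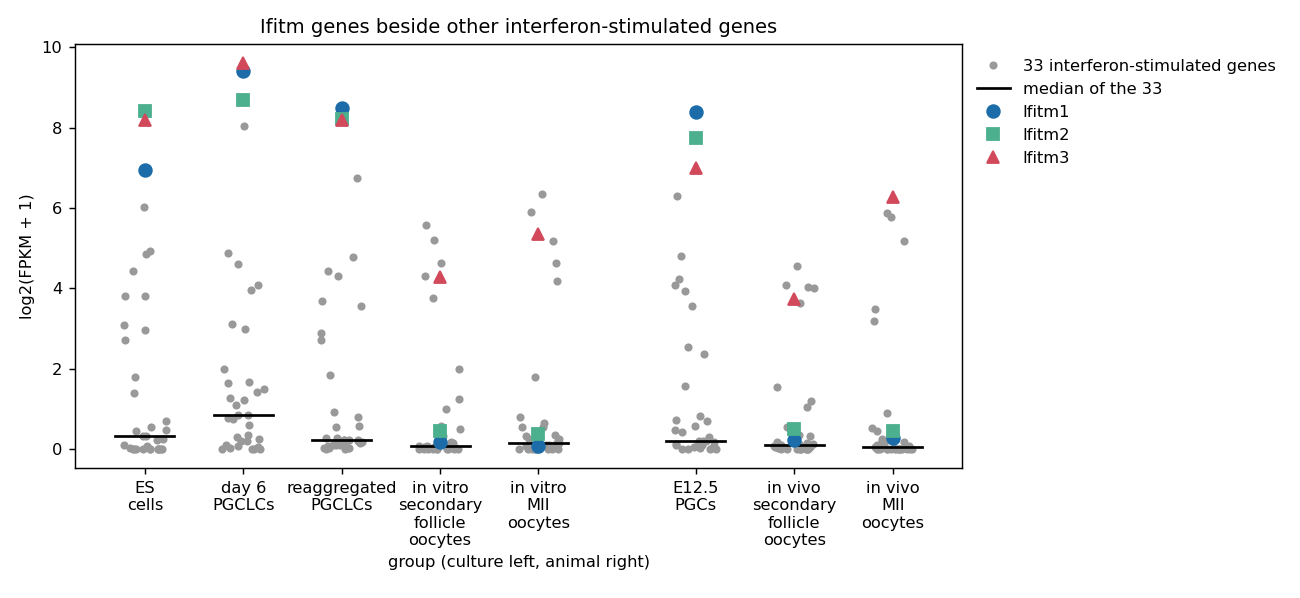
Levels as log2(FPKM + 1) of Ifitm1, Ifitm2 and Ifitm3 beside 33 other interferon-stimulated genes (grey points, with their median as a line) in the culture groups on the left and the animal groups on the right. The 3 members lie above all grey points in the 4 groups before the oocyte stages, and Ifitm1 and Ifitm2 lie near the median of the list in oocytes.

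Most genes for proteins that modify or bind IFITM proteins were detected at all stages. In the order of the groups, 11, 10, 10, 10 and 9 of 11 such genes had 1 FPKM or more along the culture route, and 11, 10 and 8 along the animal route. Nedd4, the ubiquitin ligase that marks IFITM3 for turnover, had 197, 64.9 and 64.1 FPKM in ES cells, day 6 PGCLCs and reaggregated PGCLCs and 62.8 FPKM in E12.5 PGCs. It was lower in secondary follicle oocytes of both routes, with 4.79 FPKM in culture and 3.69 FPKM in the animal. Zdhhc20, an enzyme that palmitoylates IFITM3, had 14.0 FPKM in reaggregated PGCLCs, 3.77 FPKM in oocytes of in vitro secondary follicles and 35.4 FPKM in in vitro MII oocytes. Cd81, whose tetraspanin protein sits with IFITM1 at the surface of lymphocytes, had 229 FPKM in ES cells and at most 18.4 FPKM in any other group. In the step to the secondary follicle 4 of 11 were higher and 3 lower in culture, and 4 higher and 5 lower in the animal. The shares over all genes were 25.2% higher and 26.4% lower for culture, and 24.3% and 25.9% for the animal. The list had medians of -0.65 and -0.27, beside -0.09 over all genes tested in each.

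PGC specification genes gave the germ cell setting of these levels. Of 15, 14 passed the filter, and 8 were higher and 0 lower in day 6 PGCLCs than in ES cells, with a median log2 ratio of 1.31. Over all genes tested 9.63% were higher and 12.0% lower, with a median of 0.00021. Dnd1, an RNA-binding gene of PGCs, had a ratio of 4.75, Dppa3 3.65 and Prdm1, a repressor at the head of PGC fate, 2.94, beside 2.47 for Ifitm1 and 1.42 for Ifitm3. Id3 (196 against 12.8 FPKM) and Nanos3 (35.1 against 1.85 FPKM) had ratios between those of Dnd1 and Dppa3. In in vitro secondary follicle oocytes 11 of 14 were lower than in reaggregated PGCLCs and 1, Dppa3, was higher, and in the animal 10 were lower and 1, again Dppa3, higher. Over all genes 26.4% were lower and 25.2% higher in culture, and 25.9% lower and 24.3% higher in the animal. The list medians were -2.69 in culture and -2.34 in the animal, beside -0.09 over all genes in each. Prdm14, Nanos3, Dnd1, Alpl and Bmp4, lower in both routes, reached 1 FPKM in no oocyte group. They passed the filter only through the earlier groups, where they are high. The counts of lower genes and the medians at this step therefore cannot be weighed against those over all genes. Dnd1, with -6.57 in culture and -6.74 in the animal, had the lowest ratio of the list, beside -7.75 and -7.26 for Ifitm2. Tfap2c, a transcription factor of PGCs, resembled Ifitm3 in being present in oocytes, with 38.4 FPKM in in vitro and 85.6 FPKM in in vivo MII oocytes, against 6.22 and 9.76 FPKM in the secondary follicle oocytes of the same routes.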

How the data were processed

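Directional libraries of poly(A) RNA from 23 samples (8 groups) were read, so only RNA with a poly(A) tail was measured. Per the submitters' processing notes, TopHat2, Bowtie2 2.0.13, Cufflinks and Cuffdiff 2.2.1 were used with mm10. The deposited table has 22784 symbols and, per the file headers, holds FPKM in 8 columns, 1 value for each gene and group. Separate samples are not shown, so the planned limma test could not be run, and the fallback of ratios with no test was used. Raw reads were not analysed here, and the sources used here do not state their number.

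Values were taken as log2(FPKM + 1), genes with at least 1 FPKM in at least 1 group were tested (14242), and 2-fold was the call rule, checked on simulated data. Members and gene lists were chosen with earlier results of these data known. Named were the 3 members, every other Ifitm gene, the 5 nearest profiles of each member (1 gene is not reported here), the 5 neighbours on each side, up to 4 called genes per list and comparison, and cell type markers. Ligand, Ifnar1, Irf9 and Tfap2c values, and the 5 classical interferon targets named as low, were picked after their values were seen. Promoters are RefSeq's for GRCm38.p6, matched by symbol for 7 of 7 Ifitm genes. Of the markers 1, Adgre1, was not found in the table by that symbol. Alternatives were pseudocounts of 0.1 and 5, filters of 5 FPKM and none, quantile normalization, median centring and equal sums. Python 3.11.15, pandas 2.3.3, NumPy 2.4.6, Biopython 1.88 and matplotlib 3.10.9 were used.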

Additional observations from a re-analysis of the deposited data

How the results depend on the processing

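Of 135 recomputed ratios of Ifitm1, Ifitm2 and Ifitm3, 129 kept the side of the 2-fold line, and the 6 whose sign differed were within 2-fold as reported. The 6 that crossed the line all involve MII oocytes. Ifitm3 in in vitro MII over in vitro secondary follicle oocytes (1.07) was 0.28 with equal sums, 0.94 with a pseudocount of 5 and 0.82 after quantile normalization. Ifitm3 in in vitro over in vivo MII oocytes was -1.29 and Ifitm1 in in vivo MII over in vivo secondary follicle oocytes 1.04, both after median centring, and Ifitm1 in in vitro over in vivo MII oocytes was -1.04 with a pseudocount of 0.1. Ifitm6 in in vivo MII over in vivo secondary follicle oocytes (1.20) was -0.26 with equal sums and -0.016 after quantile normalization. The cause was not tested.

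Scaling moved the median of all genes, most for MII oocytes. It was -0.38 after median centring and 0.23 with equal sums for in vitro over in vivo MII oocytes, 0.51 and -0.50 for in vitro MII over in vitro secondary follicle oocytes, and 0.89 and -0.74 for the same step in the animal. With equal sums it was -0.38 for in vitro secondary follicle oocytes over reaggregated PGCLCs, -0.34 for in vivo secondary follicle oocytes over E12.5 PGCs and 0.11 for reaggregated over day 6 PGCLCs. Relative to it, Ifitm3 stays 3.51 against 0.89 after median centring, and 1.09 against -0.74 with equal sums, in in vivo MII over in vivo secondary follicle oocytes.

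List medians that crossed 2-fold were these. For interferon signalling in in vivo MII over in vivo secondary follicle oocytes it was -1.34 with equal sums and -1.55 with a pseudocount of 0.1. For interferon-stimulated genes a pseudocount of 0.1 gave -1.25 in in vitro secondary follicle oocytes over reaggregated PGCLCs and -1.44 in in vivo secondary follicle oocytes over E12.5 PGCs. For PGC specification it was 0.95 in day 6 PGCLCs over ES cells with a pseudocount of 5, and 1.12 after median centring and 1.24 with a pseudocount of 0.1 in in vitro MII over in vitro secondary follicle oocytes. For IFITM-modifying proteins it was -1.02 with equal sums in in vitro secondary follicle oocytes over reaggregated PGCLCs, and 1.72 after median centring and 1.23 with a pseudocount of 0.1 in in vivo MII over in vivo secondary follicle oocytes.

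Counts over all genes moved more. With a pseudocount of 0.1, 2253 genes were higher in day 6 PGCLCs than in ES cells (1371 with a pseudocount of 1), 3695 in in vitro than in vivo MII oocytes (1772), 708 higher and 322 lower in in vitro than in vivo secondary follicle oocytes (248 and 94), 673 and 354 in reaggregated PGCLCs than in E12.5 PGCs (198 and 112), and 1741 and 1258 in reaggregated than in day 6 PGCLCs (733 and 718). With a pseudocount of 5 the higher and lower genes were 591 and 759 in day 6 PGCLCs over ES cells, 111 and 273 in reaggregated over day 6 PGCLCs, 28 and 30 in reaggregated PGCLCs over E12.5 PGCs, 2341 and 2028 in in vitro secondary follicle oocytes over reaggregated PGCLCs, 2236 and 1977 in in vivo secondary follicle oocytes over E12.5 PGCs, 642 and 844 in in vitro over in vivo MII oocytes, and 49 and 19 in in vitro over in vivo secondary follicle oocytes. It left 2498 lower genes in in vitro and 3069 in in vivo MII oocytes over the secondary follicle oocytes of the same route. With equal sums 2131 and 2170 genes were higher in those steps, 314 in reaggregated PGCLCs over E12.5 PGCs and 1326 over day 6 PGCLCs, and 168 were lower in in vitro than in vivo MII oocytes. Median centring gave 979 higher and 3112 lower in in vitro over in vivo MII oocytes, 6089 and 2858 in in vivo MII over in vivo secondary follicle oocytes, and 2629 lower in the same step in culture. Quantile normalization gave 799 lower in in vitro than in vivo MII oocytes. A filter of 5 FPKM, or none, moved no count by more than 1.5 times.

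No paired analysis was possible because the table holds 1 value per group, and for the same reason no replicate was left out. Levels below 1 FPKM rest on few reads, and read depth is unknown.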

Other observations

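Ifitm6 was looked at further after its values were seen. The 5 genes whose profiles over the 8 groups were nearest to it, by the same measure as for the members, were Nudt7 (0.27), Bmp6 (0.31), Sebox (0.40), Rab3d (0.40) and Nlrp9a (0.42). Bmp6 encodes a growth factor and Sebox a homeobox factor, both known from mouse oocytes. Bmp6 had 61.0 and 75.6 FPKM in the secondary follicle and MII oocytes of culture, and 57.5 and 87.9 FPKM in their in vivo counterparts, with at most 0.212 FPKM in the 4 groups before the oocyte stages. Sebox had 74.1 and 97.8 FPKM in the secondary follicle and MII oocytes of culture, and 62.5 and 47.6 FPKM in their in vivo counterparts.

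Genes of interferon signalling had differing courses in oocytes, where the ligand genes were at or near 0. Jak2, a kinase of cytokine receptors, had 45.2 and 340 FPKM in the secondary follicle and MII oocytes of culture, and 49.2 and 217 FPKM in their in vivo counterparts, against 1.74 to 6.19 FPKM in the 4 earlier groups. Socs1, an inhibitor of that kinase family, had 45.7 and 151 FPKM in the secondary follicle and MII oocytes of culture, and 44.9 and 182 FPKM in vivo, against 1.69 to 2.73 FPKM earlier. Irf1, a transcription factor, had 73.9 and 2.78 FPKM in the secondary follicle and MII oocytes of culture, and 58.0 and 1.09 FPKM in vivo, against 11.7 to 54.2 FPKM earlier. Ly6e, an interferon-stimulated surface protein gene, was higher in culture in both oocyte stages, with 46.4 against 11.4 FPKM in secondary follicle oocytes and 23.7 against 8.09 FPKM in MII oocytes. The 4 earlier groups had 14.4 to 28.1 FPKM.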
